A study of Mus musculus with 24 samples.

Results

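Isoallolithocholic acid (IsoAlloLCA) was compared with no bile acid in mouse CD8+ T cells activated in culture. The comparison rests on 6 of the 24 RNA-seq libraries of the series, chosen by their sample titles: 3 libraries of untreated cells (control) and 3 of cells given IsoAlloLCA at 50 µM. The series concerns bile acids made in the liver and T cell responses to liver tumours. Its other 6 groups, of 3 libraries each, received other bile acids. Of these, lithocholic acid (LCA) and isolithocholic acid (IsoLCA), both at 50 µM, are used below to show where IsoAlloLCA differed. Every group, the controls included, held CD8+ T cells activated in vitro. Exposure lasted 24 h in the series' design text and overnight in the treatment protocol of the labels. The labels give neither the mouse strain and age nor the activating agents, and leave unsaid if replicate libraries are from different mice or culture wells. The p-values thus reflect how far replicate libraries spread within the groups of all 24 libraries, and that spread may be technical.

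LCA is a secondary bile acid that gut bacteria make from a primary acid of the liver. IsoLCA has the same skeleton with the ring hydroxyl group turned to the other face. IsoAlloLCA shares that turned hydroxyl and also has the junction of the A and B rings in the flat trans form called allo, where LCA and IsoLCA have the bent cis form. In the literature on T cells, IsoAlloLCA is known for favouring regulatory T cell differentiation of CD4+ cells. CD8+ T cells, once activated, divide, take up nutrients, synthesize lipids and proteins, and load granules with granzymes and perforin to kill target cells.

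Levels are counts scaled to a common library size (CPM) with TMM, a normalization that sets aside genes with extreme differences. They are not corrected for gene length and are compared only between samples. Differences are edgeR log2 fold changes ± SE, IsoAlloLCA minus control unless another acid is named. A gene "rose" or "fell" if its Benjamini-Hochberg adjusted p in edgeR's quasi-likelihood test was under 0.05. Means are given ± SD with n = 3. The 6 libraries held 25998051 to 37269527.5 counts in genes, and 3 counts stood for 0.0829 to 0.112 CPM. The share of a library's total that lay in exons was 82.6% ± 1.37 (SD, n = 3) in control and 78.3% ± 2.78 (SD, n = 3) with IsoAlloLCA. It thus moved with the treatment, except that IsoAlloLCA replicate 1, at 81.2%, lay between the control libraries (81.1% to 83.8%). Where a fit with this share as a covariate, or with replicate 1 as the lone IsoAlloLCA library, ended the call of a named gene, or moved by over 1.5 times a list's count that was at least 3 in either fit, that value is given beside the result. The fit with replicate 1 alone has no spread of its own for IsoAlloLCA and takes it from the other groups. For lists this covers the comparison with control only. T cell and CD8 identity genes were expressed in both groups, summing to 7344 to 7485 CPM per control library and 7622 to 8288 CPM with IsoAlloLCA. They were not unchanged: of 16 tested, 9 rose and 2 fell (median 0.12). Cd3d (0.58 ± 0.05), Cd3g (0.56 ± 0.05) and Cd6 (0.40 ± 0.04) rose and Lat (-0.41 ± 0.04) fell. Cd8a, a chain of the CD8 coreceptor, was at 626 ± 10.1 and 596 ± 33.9 CPM in control and IsoAlloLCA and did not pass the test (-0.07 ± 0.04), though it was called lower under RLE scaling and with DESeq2, by -0.09 in each. Cd4 was at 0.578 ± 0.0483 and 0.969 ± 0.188 CPM, a rise of 0.76 ± 0.24 that was about as large with exon share as a covariate (0.69) but no longer passed the test. In bulk RNA such as this, fewer cells of a type and less RNA per cell cannot be told apart.

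The response was broad, and most changes were small. Of 13044 tested genes, 7618 (58.4%) changed, 3986 (30.6%) higher and 3632 (27.8%) lower. Which direction held more genes depended on the fit. RLE scaling gave 3683 higher and 3900 lower, DESeq2 3442 and 3790, and upper-quartile scaling 4411 and 3266. The counts of list members against control below are to be read beside the shares of 30.6% and 27.8%. A count near them says little about the list. The median size of a called change was 0.33 on the log2 scale. Changes of at least 2-fold were more often rises, with 561 genes higher (4.30%) and 178 lower (1.36%), or 739 in all (5.67%). At 4-fold the counts were 92 and 26, and at 8-fold 20 and 3. The 3 and 3 libraries did not overlap in 7650 genes (58.6%), and in 6944 (53.2%) the change was also called. Many example genes below were picked for a small adjusted p or after their values were seen. A lack of overlap in them describes the values and is not separate evidence. Rises and falls were shared unequally between scarce and abundant genes. Of 1037 tested genes under 0.5 CPM in control, 287 rose and 50 fell, while of 2462 genes at 100 CPM or more, 435 rose and 1412 fell. The median log2 fold change ran from 0.40 in the lowest of these classes to -0.14 in the highest. The control level is itself a term of the fold change, and a scarce gene can enter the test through the libraries where it is higher. Classes were also set by the mean of the 18 libraries outside the comparison, a choice made after seeing the data. The medians of the lowest and highest class were then 0.34 and -0.14, with 263 rises and 65 falls in the lowest. A gene scarce in those 18 libraries can still have entered the test through the IsoAlloLCA libraries. These classes thus do not remove that selection. Among genes of at least 10 CPM, split into 4 equal classes by transcript length, the longest class had a median of 0.03 and the shortest -0.05.

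**Figure D1:**
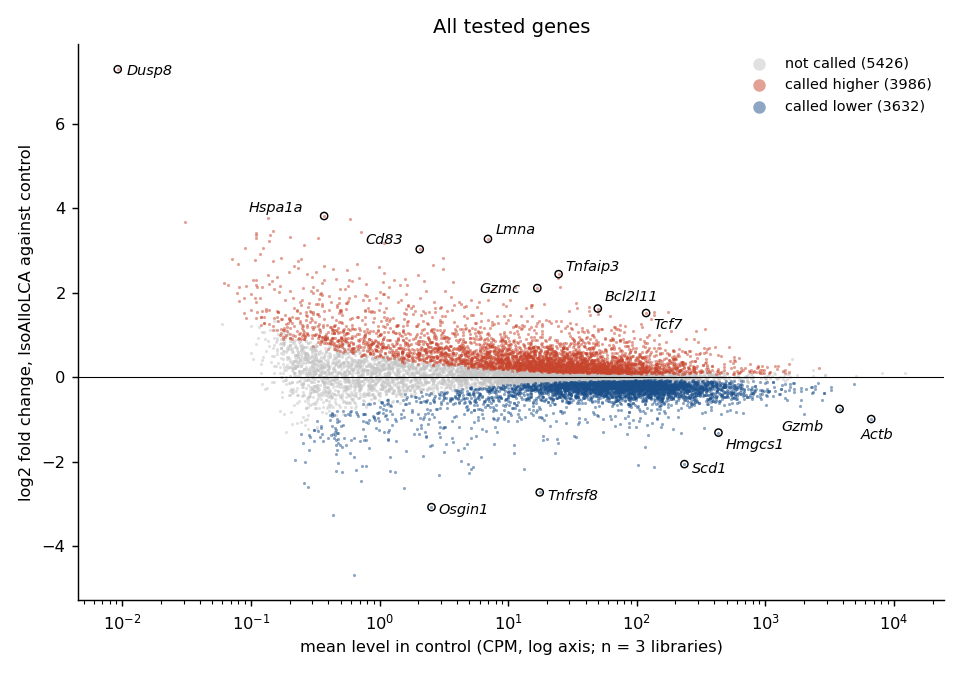
Log2 fold change of IsoAlloLCA against control for the 13044 tested genes (vertical axis) by mean control level in CPM (horizontal, log axis). Red points rose, blue points fell and grey points did not pass the test. More points are red at the scarce end and blue at the abundant end, on an axis that is itself a term of the fold change. Of the genes with names, Dusp8 is highest, followed by Hspa1a, Lmna and Cd83. Osgin1 is lowest, followed by Tnfrsf8.

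The largest rises among genes of at least 10 CPM in a group were of surface, signalling and structural genes. Lmna, which encodes the nuclear lamins A and C (chromosome 3, 88481148 to 88503352, minus strand), was at 7.43, 6.94 and 6.55 CPM in the control libraries and 68.7, 66.1 and 66.6 CPM in the IsoAlloLCA libraries. The groups lay far apart and the libraries within each group close together. Tnfsf4, the gene of the costimulatory ligand OX40L (chromosome 1, 161395438 to 161418206, plus strand), was at 3.19, 2.88 and 3.26 CPM in the control libraries and 21.9, 22.9 and 20.6 CPM in the IsoAlloLCA libraries (2.81 ± 0.11, edgeR adjusted p = 1.28e-16). Tnfaip3 encodes A20, an enzyme that dampens NF-kB signalling. It was at 22.6, 27.9 and 23.6 CPM in the control libraries and 118, 169.6 and 113 CPM in the IsoAlloLCA libraries, with replicate 2 above the others, and rose by 2.44 ± 0.11. Csf1, the gene of macrophage colony-stimulating factor, was at 2.17, 2.08 and 1.71 CPM in the control libraries and 10.1, 11.5 and 9.79 CPM in the IsoAlloLCA libraries (2.405 ± 0.12). Tagap, a GTPase-activating protein of T cells, was at 26.6, 24.8 and 21.8 CPM in the control libraries and 114, 146 and 114 CPM in the IsoAlloLCA libraries (2.36 ± 0.09). Itgb3, the integrin beta 3 chain, was at 24.6, 27.5 and 23.5 CPM in the control libraries and 96.4, 130.4 and 101 CPM in the IsoAlloLCA libraries (2.12 ± 0.11). The ranking took only called genes without overlap between groups. The lowest IsoAlloLCA library was thus above the highest control library in each by choice of genes. The other rises in the first 12 were Cd83, Rgs2, Ttc39c, the adenylate kinase gene Ak1 (2.27 ± 0.14), the kinase gene Cdc42bpb (2.25 ± 0.08) and the granzyme gene Gzmc (2.11 ± 0.06).

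The largest falls of the same ranking began with Tnfrsf8, the gene of the activation receptor CD30 (chromosome 4, 145268976 to 145315147, minus strand). It was at 16.1, 18.5 and 18.2 CPM in the control libraries and 2.66, 2.11 and 3.31 CPM in the IsoAlloLCA libraries (-2.73 ± 0.13, edgeR adjusted p = 1.37e-14). Treml2, a receptor of the TREM family, was at 139.7, 135 and 137 CPM in the control libraries and 29.6, 33.1 and 31.6 CPM in the IsoAlloLCA libraries. Lif, the gene of leukaemia inhibitory factor, was at 98.8, 103 and 107 CPM in the control libraries and 24.4, 21.4 and 28.1 CPM in the IsoAlloLCA libraries. By the rule of the ranking, no library of either group reached the range of the other in these genes. Scd1, the desaturase that makes monounsaturated fatty acids, was at 219, 249 and 238 CPM in the control libraries and 63.1, 47.7 and 58.6 CPM in the IsoAlloLCA libraries. Sema7a, a membrane semaphorin, was at 24.3, 22.2 and 23.5 CPM in the control libraries and 7.38, 5.44 and 7.33 CPM in the IsoAlloLCA libraries (-1.81 ± 0.10). Iigp1, a GTPase induced by interferon gamma, was at 121, 114 and 116 CPM in the control libraries and 40.1, 32.4 and 38.8 CPM in the IsoAlloLCA libraries (-1.66 ± 0.06). All 3 genes fell, again without overlap by that rule. The remaining falls were Bspry, Fhl2 (-1.796 ± 0.09), the transglutaminase gene Tgm1 (-1.597 ± 0.11), the growth factor gene Hbegf (-1.48 ± 0.17), Trim16 (-1.48 ± 0.07) and Enah (-1.46 ± 0.12), which encodes an actin regulator.

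**Figure D2:**
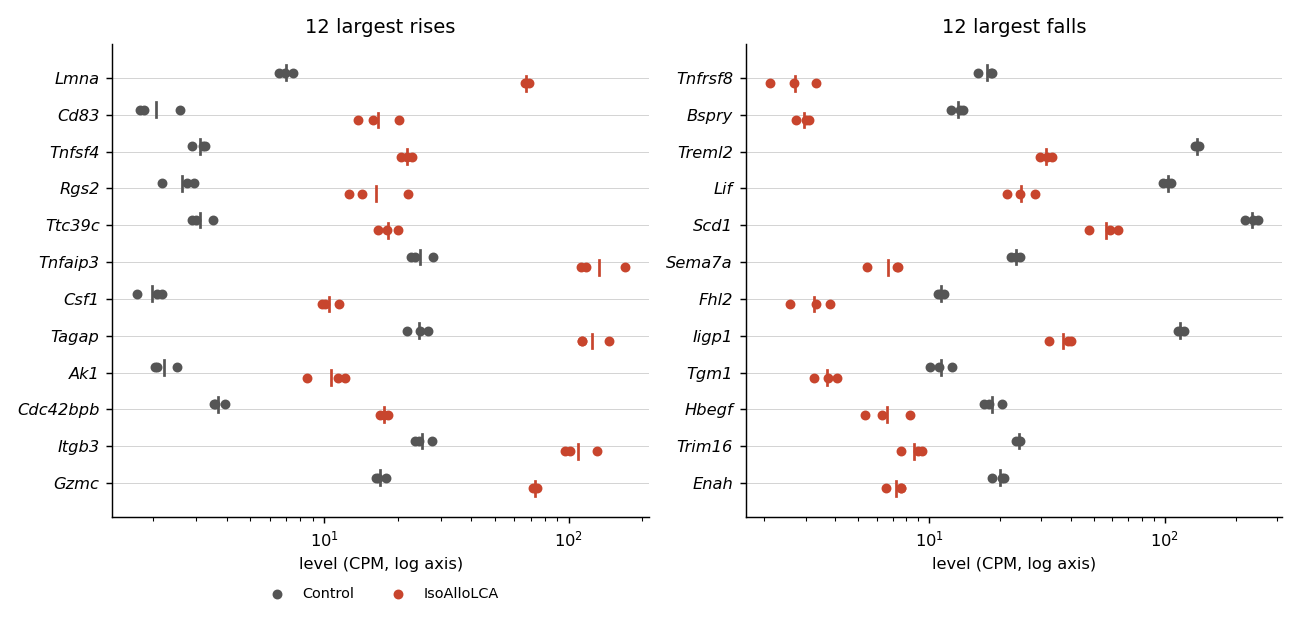
Level in CPM (log axis) in each control (grey) and IsoAlloLCA (red) library for 12 rises and 12 falls, the largest of called genes that reached 10 CPM and had no overlap between groups. Points are libraries and vertical bars group means. In all 24 genes the 3 points of a group lie closer to each other than to the other group.

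Genes near silent in control were looked at by their counts, since a gene of this kind enters the test only through counts somewhere in the 24 libraries. Of the 1037 tested genes under 0.5 CPM in control, 743 stayed under 0.5 CPM with IsoAlloLCA, 285 reached 0.5 to 2 CPM and 9 reached at least 2 CPM. These 9 are Hspa1a, Bace2, Rhod, Derl3, Plaur, Zbtb46, Klra13-ps, Dusp8 and Nxpe4. A higher mean follows from the limits of 0.5 and 2 CPM by which they were chosen, and is not separate evidence. All 9 were also called and without overlap between groups. Dusp8, a phosphatase of stress kinases (chromosome 7, 142079487 to 142095284, minus strand), had 0, 0 and 1 counts in control and 51, 109 and 43 counts with IsoAlloLCA. It was thus absent or at a lone read in each control library and present in every treated one. From 1 against 203 counts in all, the ratio scaled to library size was 216 (95% counting interval 38.4 to 8590), an interval that covers counting error only. Dusp8 was at 0.0547 ± 0.0298 CPM with LCA and 0.0367 ± 0.0323 CPM with IsoLCA, so near silent there too.

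Hspa1a, which encodes an inducible HSP70 chaperone, had 12, 15 and 10 counts in control and 137, 248 and 113 counts with IsoAlloLCA. The ratio was 14.3 (95% counting interval 10.3 to 20.6). Its near-identical neighbour Hspa1b was at 1.18, 1.11 and 0.967 CPM in the control libraries and 7.44, 13.6 and 8.22 CPM in the IsoAlloLCA libraries (3.17 ± 0.21), and reads of the pair may be shared. The transcription factor gene Zbtb46, a marker of dendritic cells, went from 7, 12 and 7 counts to 64, 102 and 50. Nxpe4 went from 3, 12 and 5 counts to 54, 88 and 49 (ratio 10.2, 95% counting interval 6.41 to 17.1). Bace2, a membrane protease, went from 13, 10 and 10 counts to 98, 130 and 79. In these near-silent genes replicate 2 had the most counts, and replicates 1 and 3 were also above every control library. Rhod, a small GTPase, had 14 to 16 counts per control library and 67 to 92 with IsoAlloLCA. Derl3, a component of protein removal from the endoplasmic reticulum, had 15 to 16 and 59 to 91. Plaur, the urokinase receptor gene, had 12 to 13 and 43 to 95. The pseudogene Klra13-ps of the Ly49 receptor cluster had 13 to 20 and 45 to 97, and may share reads with its relatives. Plaur stood at 2.28 ± 0.1697 CPM with LCA and 2.26 ± 0.591 CPM with IsoAlloLCA, and the difference did not pass the test (0.01 ± 0.20, 95% interval -0.40 to 0.41). Below 2 CPM, Ramp3, a partner of the calcitonin receptor family, and Plpp3, a lipid phosphatase, also had large fold changes, at 0.137 ± 0.0916 and 1.95 ± 0.226 CPM and 0.148 ± 0.0217 and 1.71 ± 0.424 CPM in control and IsoAlloLCA. These 2 genes were chosen after their values were seen.

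The reverse pattern, at least 2 CPM in control and under 0.5 CPM with IsoAlloLCA, held for 1 gene. Osgin1, a growth inhibitor induced by oxidative stress (chromosome 8, 119437162 to 119446256, plus strand), had 81, 96 and 77 counts in control and 10, 11 and 7 with IsoAlloLCA. It fell by -3.08 ± 0.25 (edgeR adjusted p = 1.06e-10). Osgin1 was also low with LCA (0.411 ± 0.144 CPM) and IsoLCA (0.308 ± 0.0746 CPM), and neither acid differed from IsoAlloLCA past the threshold (95% intervals -1.19 to 0.21 and -0.83 to 0.67).

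**Figure D3:**
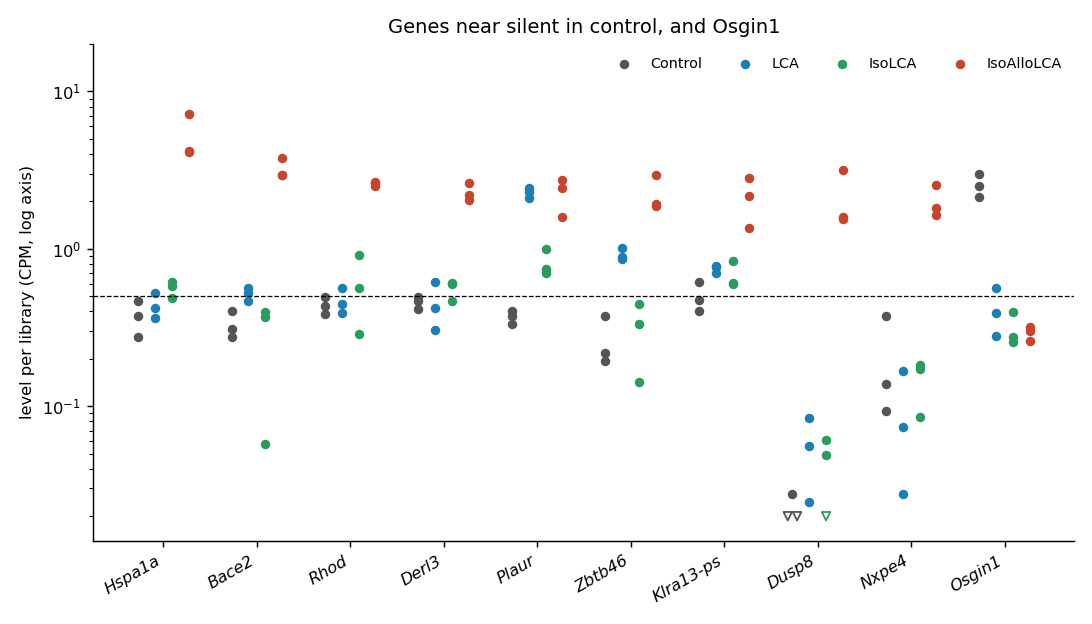
Level in CPM (log axis) per library in control, LCA, IsoLCA and IsoAlloLCA for the 9 genes under 0.5 CPM in control and at least 2 CPM with IsoAlloLCA, and for Osgin1. The dashed line is 0.5 CPM and open triangles are libraries with 0 counts, drawn at the axis floor. Plaur is as high with LCA as with IsoAlloLCA, and Osgin1 is low with all 3 acids.

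By share of the RNA, the largest losses were of cytoskeletal, granule and glycolytic genes. Actb, which encodes beta-actin, was at 6593, 6493 and 6922 CPM in the control libraries and 3654, 3011 and 3380.0 CPM in the IsoAlloLCA libraries. The highest treated library was well below the lowest control, and the loss was the largest of any called gene in CPM (-0.99 ± 0.05). Gzmb, the gene of granzyme B, was at 3611, 3696 and 4045 CPM in the control libraries and 2473, 1832 and 2430.0 CPM in the IsoAlloLCA libraries (-0.75 ± 0.09). Actg1, gamma-actin, was at 1992, 1986 and 2071 CPM in the control libraries and 1202, 958 and 1120.0 CPM in the IsoAlloLCA libraries (-0.88 ± 0.05). The nucleolar gene Ncl (2769 ± 151 to 1904 ± 163 CPM), the actin-severing gene Cfl1 (1850.0 ± 81.6 to 1143 ± 107 CPM) and the glycolytic genes Eno1 (2880.0 ± 101 to 2216 ± 144 CPM) and Pkm (3222 ± 156 to 2609 ± 123 CPM) were further large losses. Eno1b, a copy of Eno1 that may share its reads, was among them too. The largest gains were of Vim, an intermediate filament gene (2624 ± 41.04 to 3070.0 ± 146 CPM), the giant scaffold gene Ahnak (342 ± 68.2 to 756 ± 149.8 CPM) and the class I light chain gene B2m (1521 ± 36.4 to 1890.0 ± 82.1 CPM). Dennd4a, Pim2, Trp53inp1 and Akap13 were also among the 8 largest gains.

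Genes of the cell death pathways moved in both directions. Of 7 tested BH3-only genes, the sensors that start mitochondrial apoptosis, 4 rose and 1 fell, with a median of 0.94 beside 0.03 over all tested genes. Bcl2l11, which encodes BIM (chromosome 2, 128126038 to 128162547, plus strand), was at 52.3, 50.4 and 46.9 CPM in the control libraries and 137, 176 and 147 CPM in the IsoAlloLCA libraries (1.62 ± 0.09, edgeR adjusted p = 5.16e-14). Bbc3, which encodes PUMA, was at 14.9, 15.7 and 14.5 CPM in the control libraries and 44.7, 53.6 and 44.7 CPM in the IsoAlloLCA libraries. Bmf was at 5.58, 5.83 and 5.14 CPM in the control libraries and 13.8, 13.97 and 12.4 CPM in the IsoAlloLCA libraries (1.29 ± 0.12). In each of the 3 genes every treated library was above every control library. Bid fell (-0.40 ± 0.07), and Bad and Bik did not pass the test. Of the effectors that form pores, Bax rose (0.30 ± 0.05) and Bak1 fell (-0.45 ± 0.04). Among 7 survival genes of the family 3 rose, Bcl2a1b (0.57 ± 0.09), Bcl2l2 (0.55 ± 0.07) and Mcl1 (0.28 ± 0.03). Bcl2l1, which encodes BCL-XL, fell (-0.25 ± 0.07), a call lost with exon share as a covariate (-0.13). Bcl2 itself was at 731 ± 18.4 and 678 ± 18.2 CPM and did not pass (-0.11 ± 0.05), though RLE scaling and DESeq2 called it lower. Of 18 death receptor and caspase genes 9 rose and 5 fell, with the TRAIL receptor gene Tnfrsf10b at 17.1, 14.3 and 16.7 CPM in the control libraries and 34.95, 32.98 and 35.4 CPM in the IsoAlloLCA libraries (1.102 ± 0.07). Casp8, which encodes an initiator caspase, fell (-0.32 ± 0.04).

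Of 25 genes known as p53 targets outside that family, 19 rose and 1 fell (median 0.55). Plk2, a kinase of the stress response, was at 4.74, 4.99 and 5.72 CPM in the control libraries and 17.7, 17.97 and 19.1 CPM in the IsoAlloLCA libraries (1.82 ± 0.11). Btg2, an antiproliferative gene, was at 34.9, 35.4 and 32.1 CPM in the control libraries and 105, 115 and 98.3 CPM in the IsoAlloLCA libraries (1.64 ± 0.11). Trp53inp1, a stress-induced cofactor of p53, was at 149, 133 and 128 CPM in the control libraries and 389.8, 417 and 390.1 CPM in the IsoAlloLCA libraries (1.54 ± 0.09). The groups did not overlap in any of the 3. Mdm2, the ligase that limits p53, rose less (0.55 ± 0.04), and Trp53 itself did not pass the test (-0.07 ± 0.04), though RLE scaling and DESeq2 called it lower.

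FOXO factors drive genes of quiescence and homing when growth signalling is low. Of 24 tested FOXO factors and targets, 20 rose, 8 of them at least 2-fold, and 1 fell (median 0.68). Irs2, an adaptor of the insulin receptor, was at 4.68, 4.74 and 4.72 CPM in the control libraries and 13.3, 18.8 and 12.9 CPM in the IsoAlloLCA libraries (1.67 ± 0.13). Pik3ip1, which inhibits PI3 kinase, was at 18.1, 19.1 and 15.4 CPM in the control libraries and 38.1, 51.9 and 41.6 CPM in the IsoAlloLCA libraries (1.33 ± 0.11). Ccng2, a cyclin of arrested cells, was at 52.1, 59.4 and 47.9 CPM in the control libraries and 115, 128 and 108 CPM in the IsoAlloLCA libraries (1.14 ± 0.12). The cell cycle inhibitor Cdkn1b (0.88 ± 0.09), Sesn3 (0.96 ± 0.08) and the insulin receptor gene Insr (0.60 ± 0.07) rose too. Foxo3 rose (0.46 ± 0.05), and Foxo1 and Foxo4 did not pass. The fall, of Cited2 (-0.21 ± 0.07), was about as large with exon share as a covariate (-0.19) but no longer passed the test. The promoter of Bcl2l11, which is in both groups of genes above, is shown because it is 1 of 2 among 19 FOXO-list promoters that hold the FOXO core GTAAACA on either strand in the 250 bases before the start. Txnip is the other. The core stands in 3.17% of 32851 mouse promoter windows. Of 9909 tested genes with a window, 2.73% hold it in at least 1 window. Capitals mark it in the stretch at chr2:128125788-128125847, plus strand (RefSeq, GRCm38.p6). A match describes the letters and is neither a binding site nor a cause.
Bcl2l11: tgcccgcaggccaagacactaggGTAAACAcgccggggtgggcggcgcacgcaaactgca

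NF-kB subunits and the inhibitors that the pathway induces against itself were mostly higher. Of 18 tested, 13 rose, 6 at least 2-fold, and 2 fell (median 0.40), or 4 with exon share as a covariate. Nfkbia, the inhibitor IkB alpha, was at 31.9, 37.6 and 31.7 CPM in the control libraries and 111, 126 and 104 CPM in the IsoAlloLCA libraries (1.75 ± 0.07). Relb, a subunit of the non-canonical pathway, was at 14.2, 16.9 and 14.6 CPM in the control libraries and 46.4, 57.03 and 45.8 CPM in the IsoAlloLCA libraries (1.71 ± 0.08). Nfkb2, its partner, was at 68.3, 69.96 and 65.9 CPM in the control libraries and 148, 174 and 144 CPM in the IsoAlloLCA libraries (1.19 ± 0.06). These 3 genes showed no overlap between groups. Traf1 (1.15 ± 0.08), Nfkbie (0.94 ± 0.06) and Nfkbiz (1.24 ± 0.16, or 0.64 with exon share as a covariate) also rose. Nfkb1, the p50 precursor of the canonical pathway, fell (-0.37 ± 0.04), as did Traf3 (-0.20 ± 0.04).

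Among 12 ligands of the TNF superfamily, 5 rose and 3 fell. Besides Tnfsf4, the CD30 ligand gene Tnfsf8 went from 30.8 ± 1.79 to 53.8 ± 0.794 CPM (0.80 ± 0.05) while its receptor gene Tnfrsf8 fell. Tnf (-0.26 ± 0.07) and Tnfsf10, the TRAIL gene (-0.58 ± 0.08), fell, and so did Lta (-0.38 ± 0.11), whose call was lost with exon share as a covariate (-0.30). Of 19 receptors, 9 rose and 4 fell. Tnfrsf9, the costimulatory receptor 4-1BB, went from 354 ± 41.1 to 559 ± 37.4 CPM (0.66 ± 0.08), and the decoy receptor genes Tnfrsf23 (1.56 ± 0.15) and Tnfrsf26 (1.32 ± 0.10) rose. The receptor gene Tnfrsf13c, known from B cells, fell from 4.07 ± 0.557 to 1.24 ± 0.205 CPM (-1.72 ± 0.16).

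Genes that T cell receptor signalling induces at once were higher in 14 of 18 cases and lower in 3 (median 0.66). Egr1, an immediate early transcription factor, was at 13.9, 14.6 and 12.7 CPM in the control libraries and 40.96, 52.8 and 34.3 CPM in the IsoAlloLCA libraries (1.64 ± 0.10). Rgs1, a brake on chemokine receptors, was at 21.9, 24.9 and 24.5 CPM in the control libraries and 59.6, 67.4 and 50.8 CPM in the IsoAlloLCA libraries (1.32 ± 0.08). Nr4a2 (1.13 ± 0.11) and Nr4a3 (0.80 ± 0.07) rose beside Nr4a1, all orphan nuclear receptors of this response. Myc (-0.46 ± 0.07), Nfatc1 (-0.29 ± 0.04) and Egr3 (-0.50 ± 0.10) fell. Of 14 AP-1 family genes 8 rose and 4 fell. Fos was at 2.51, 2.29 and 1.38 CPM in the control libraries and 5.96, 9.72 and 6.51 CPM in the IsoAlloLCA libraries (1.86 ± 0.21). Bach2, a repressor that restrains effector differentiation, was at 48.7, 49.6 and 42.6 CPM in the control libraries and 98.1, 120.3 and 104 CPM in the IsoAlloLCA libraries (1.199 ± 0.08). The groups did not overlap in either gene. Batf3 (-0.56 ± 0.09) and Maf (-0.98 ± 0.19) fell. Of 19 cAMP-responsive and phosphodiesterase genes, 14 rose and 2 fell (median 0.54). Rgs2, which limits G protein signalling, was at 2.76, 2.94 and 2.18 CPM in the control libraries and 12.7, 22.1 and 14.2 CPM in the IsoAlloLCA libraries, Crem went from 27.8 ± 1.38 to 62.4 ± 3.19 CPM (1.17 ± 0.06), and the phosphodiesterase genes Pde4b (1.16 ± 0.07), Pde4d (0.95 ± 0.06) and Pde3b (0.83 ± 0.05) rose. Of 19 RGS and G protein-coupled receptor genes 13 rose and 3 fell, with the lysophospholipid receptor gene P2ry10 at 104, 111 and 109 CPM in the control libraries and 260.0, 282 and 231 CPM in the IsoAlloLCA libraries (1.26 ± 0.05). Among 15 ERK feedback genes 7 rose and 2 fell. Spred2, an inhibitor of that pathway, fell (-0.82 ± 0.08), and Dusp4 rose (0.80 ± 0.07).

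Inhibitory receptor genes rose in 10 of 15 cases and fell in 3 (median 0.54). Ctla4, a competitor of CD28, was at 328, 355 and 326 CPM in the control libraries and 507, 592 and 519.5 CPM in the IsoAlloLCA libraries (0.68 ± 0.06). Cd96, a receptor for nectins, was at 104, 107 and 106 CPM in the control libraries and 216, 182 and 193 CPM in the IsoAlloLCA libraries (0.90 ± 0.06). The costimulatory gene Cd28 was at 248, 245 and 226 CPM in the control libraries and 443, 473 and 417 CPM in the IsoAlloLCA libraries (0.89 ± 0.08). The ectoenzyme genes Entpd1 (-0.62 ± 0.09, or -0.40 with exon share as a covariate) and Nt5e (-0.65 ± 0.14), whose products turn ATP into adenosine, and Lair1 (-0.55 ± 0.08) fell. Of 16 naive and memory genes, 12 rose and 3 fell (median 0.62). Slamf6, a receptor of the SLAM family, rose from 32.2 ± 0.584 to 59.99 ± 4.13 CPM (0.90 ± 0.07). Those that fell were Cxcr3, a chemokine receptor of effector cells (32.6 ± 3.11 to 12.4 ± 1.097 CPM, -1.399 ± 0.10), Igfbp4 (-1.19 ± 0.07) and Ly6c2 (-0.30 ± 0.06, or -0.16 with exon share as a covariate). Of 23 adhesion and trafficking genes, 11 rose and 6 fell. Cxcr6 (50.4 ± 3.75 to 110.4 ± 3.37 CPM, 1.13 ± 0.10), Cxcr4 (0.84 ± 0.07) and the integrin gene Itgae (1.22 ± 0.22) rose, and the gut-homing integrin gene Itgb7 fell (499.6 ± 13.7 to 289 ± 15.2 CPM, -0.79 ± 0.05). Of 19 costimulation and activation genes 10 rose and 6 fell, Cd44 rising (0.95 ± 0.04) and Il2ra, the high-affinity interleukin 2 receptor chain, falling (-0.38 ± 0.08).

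Cytotoxic genes divided within a gene cluster. Of 18 tested, 10 rose and 3 fell (median 0.25). The granzyme genes Gzmc, Gzmd, Gzme, Gzmf and Gzmg, which lie beside Gzmb on chromosome 14, all rose while Gzmb fell. Gzmc (chromosome 14, 56231401 to 56234657, minus strand) was at 16.3, 16.5 and 17.8 CPM in the control libraries and 72.6, 71.3 and 74.4 CPM in the IsoAlloLCA libraries (2.11 ± 0.06, edgeR adjusted p = 1.66e-18). Gzmd was at 2.199, 4.89 and 3.78 CPM in the control libraries and 13.4, 16.4 and 10.3 CPM in the IsoAlloLCA libraries (1.89 ± 0.19). Gzme was at 1.08, 2.08 and 1.66 CPM in the control libraries and 5.53, 7.46 and 5.77 CPM in the IsoAlloLCA libraries (1.96 ± 0.19). Each was higher in every treated library than in any control. Gzmg (0.817 ± 0.2296 and 2.52 ± 0.729 CPM) and Gzmf (0.334 ± 0.07102 and 0.937 ± 0.291 CPM) were scarce in both groups (1.62 ± 0.32 and 1.48 ± 0.34), and the call for Gzmf was lost with replicate 1 alone (1.15). Gzmd, Gzme, Gzmf and Gzmg are close paralogs, and reads may have been divided between them. In counts the cluster's total still went down, since Gzmb (chromosome 14, 56258836 to 56262334, minus strand) held far more reads than its neighbours. Gzma, on chromosome 13, fell from 17.4 ± 1.64 to 9.07 ± 0.846 CPM (-0.94 ± 0.11), and the pore-forming perforin gene Prf1 from 29.3 ± 3.59 to 19.6 ± 0.728 CPM. The granule proteoglycan gene Srgn rose (0.31 ± 0.06), as did Serpinb6b (30.2 ± 1.57 to 73.4 ± 12.5 CPM, 1.28 ± 0.09), a protease inhibitor of the serpin family. Ifng was at 4.43 ± 0.974 and 4.005 ± 0.8998 CPM and did not pass the test (-0.13 ± 0.18, 95% interval -0.49 to 0.23).

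Receptor genes of natural killer (NK) cells, many of which activated CD8+ T cells also carry, rose in 10 of 11 tested cases, 8 at least 2-fold, and none fell (median 1.28). Klrd1, the CD94 gene (chromosome 6, 129591811 to 129598775, plus strand), was at 44.7, 43.1 and 41.1 CPM in the control libraries and 126, 151 and 132 CPM in the IsoAlloLCA libraries (1.67 ± 0.08). Klrc1, its inhibitory partner NKG2A, was at 16.7, 16.6 and 17.3 CPM in the control libraries and 40.7, 44.4 and 37.5 CPM in the IsoAlloLCA libraries (1.28 ± 0.07). Klrk1, the activating receptor NKG2D, was at 169.5, 166 and 167 CPM in the control libraries and 272, 261 and 255 CPM in the IsoAlloLCA libraries (0.65 ± 0.04). In these 3 genes the groups did not overlap. The rest were scarce, with Klri2 at 0.876 ± 0.06698 and 2.61 ± 0.217 CPM (1.57 ± 0.18), Klrc2 at 1.15 ± 0.272 and 3.06 ± 0.527 CPM (1.401 ± 0.19), Klre1 at 1.19 ± 0.169 and 2.97 ± 0.385 CPM (1.32 ± 0.15) and the Ly49 gene Klra7 at 0.566 ± 0.0479 and 1.96 ± 0.559 CPM (1.79 ± 0.22). Klrb1c (1.07 ± 0.26) lost its call with exon share as a covariate (0.75), and Ncr1, a defining NK cell gene, was at 0.248 ± 0.06200 and 0.3998 ± 0.111 CPM and did not pass. Summed over 7 markers of NK and innate lymphoid cells, the level was 4.97 to 6.85 CPM per control library and 14.4 to 20.2 CPM with IsoAlloLCA, mostly from the receptor gene Kit (4.54 ± 0.881 and 14.1 ± 3.12 CPM, 1.65 ± 0.15). Of the 4 that could be tested, Kit and Klrb1c rose and Il1rl1, the gene of an interleukin 33 receptor, fell (0.492 ± 0.101 to 0.165 ± 0.1003 CPM, -1.62 ± 0.36). None of the 7 was at 0 in all 6 libraries. The summed level of 17 macrophage, dendritic and granulocyte markers was 4.81 to 5.70 CPM in control and 9.86 to 12.9 CPM with IsoAlloLCA. Of the 7 tested among them, 5 rose, including Xcr1 (1.203 ± 0.316 and 2.72 ± 0.543 CPM, 1.17 ± 0.18) and Cd68 (2.51 ± 0.215 and 5.42 ± 1.23 CPM, 1.12 ± 0.15, or 0.73 with exon share as a covariate), and S100a8, S100a9 and Elane were at 0 in the 6 libraries. The 8 B cell markers summed to 6.13 to 6.63 and 4.49 to 5.41 CPM, with Pax5 at 0. The part of these other cell types in the results was not tested.

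Transcription factors of effector and memory cells moved in both directions, 8 of 27 up and 12 down. Ikzf2, which encodes Helios, was at 16.5, 14.3 and 14.1 CPM in the control libraries and 42.5, 62.2 and 41.97 CPM in the IsoAlloLCA libraries (1.71 ± 0.10). Tcf7 rose, and so did Satb1, an organizer of chromatin in T cells (367 ± 5.99 to 591 ± 16.8 CPM, 0.69 ± 0.04). Tbx21, which encodes T-bet, was at 49.9, 50.1 and 47.9 CPM in the control libraries and 27.8, 25.3 and 26.1 CPM in the IsoAlloLCA libraries (-0.90 ± 0.06). Eomes was at 26.1, 25.4 and 27.04 CPM in the control libraries and 13.7, 14.6 and 15.7 CPM in the IsoAlloLCA libraries (-0.84 ± 0.08). The effector factors T-bet and Eomes thus stood lower in all 3 treated libraries. Prdm1 (-0.51 ± 0.06), Id2 (-0.45 ± 0.05), Gfi1 (-1.12 ± 0.07) and Zbtb32 (191 ± 3.26 to 81.3 ± 2.26 CPM, -1.23 ± 0.05) fell, and Hic1 went from 4.97 ± 0.806 to 1.02 ± 0.325 CPM (-2.27 ± 0.20). Of 14 regulatory T cell genes, 6 rose and 5 fell (median 0.03). Foxp3, which defines that lineage, was at 8.61, 8.52 and 9.09 CPM in the control libraries and 9.76, 9.98 and 11.1 CPM in the IsoAlloLCA libraries (0.23 ± 0.07). The rise was small, and the call was lost without IsoAlloLCA replicate 3 or with replicate 1 alone (0.15). Izumo1r, the folate receptor 4 gene, fell from 4.76 ± 0.0721 to 1.604 ± 0.112 CPM (-1.57 ± 0.13). Of 9 helper lineage genes 4 rose, Rora (7.54 ± 1.696 to 18.4 ± 4.01 CPM, 1.29 ± 0.18), Ahr (0.87 ± 0.14), Gata3 (0.33 ± 0.09) and Cd4 (0.76 ± 0.24), and 3 fell. Gata3 and Cd4 lost the call with exon share as a covariate (0.22 and 0.69), and the rises were 2 with it and 2 with replicate 1 alone.

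Of 11 tested cytokine genes, 3 rose and 5 fell. Osm, which encodes oncostatin M, was at 72.96, 71.8 and 76.8 CPM in the control libraries and 37.9, 29.5 and 35.9 CPM in the IsoAlloLCA libraries (-1.104 ± 0.07). With Lif, a relative that signals through the same receptor chain, it made the falls of at least 2-fold, and Csf1 the rise. Among 6 tested chemokine genes Ccl5 rose from 12.8 ± 1.99 to 28.5 ± 3.17 CPM (1.16 ± 0.12) and Cxcl10 from 2.65 ± 0.961 to 5.73 ± 0.529 CPM (1.13 ± 0.16), while Ccl3 (2.09 ± 0.241 to 0.897 ± 0.113 CPM, -1.21 ± 0.18) and Ccl4 (2.21 ± 0.142 to 1.14 ± 0.146 CPM, -0.95 ± 0.16) fell. Of 23 cytokine receptor genes, 14 rose and 6 fell, and with exon share as a covariate or replicate 1 alone the rises were 10 and 9. Il2rg, the chain shared by interleukin 2 family receptors, rose (346 ± 7.23 to 524 ± 12.1 CPM, 0.60 ± 0.04), while Il2ra and Il2rb (-0.24 ± 0.05, or -0.09 with exon share as a covariate) fell. Il12rb2 rose (262 ± 9.097 to 404 ± 15.7 CPM, 0.62 ± 0.05) and its partner Il12rb1 fell (112 ± 4.62 to 64.4 ± 3.75 CPM, -0.81 ± 0.05). Of 22 SOCS, PIM and STAT genes 7 rose (4 with replicate 1 alone) and 10 fell, with Cish (-0.53 ± 0.06) down and Stat4 (0.48 ± 0.06) up.

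Cholesterol synthesis genes fell nearly throughout. Of 21 tested, 20 fell, 8 at least 2-fold, and none rose (median -0.97). Hmgcs1, which makes the precursor of mevalonate (chromosome 13, 119690351 to 119708260, plus strand), was at 415, 452 and 430.4 CPM in the control libraries and 187, 163 and 172 CPM in the IsoAlloLCA libraries (-1.31 ± 0.06, edgeR adjusted p = 3.52e-15). Cyp51, the lanosterol demethylase, was at 322, 342 and 339 CPM in the control libraries and 162, 127 and 147 CPM in the IsoAlloLCA libraries (-1.202 ± 0.07). Lss, which closes the sterol rings, was at 152, 162 and 158 CPM in the control libraries and 74.2, 67.2 and 76.2 CPM in the IsoAlloLCA libraries (-1.12 ± 0.06). The groups were far apart in all 3. Ggps1, of the branch to protein prenylation, did not pass (-0.03 ± 0.04). Of 17 sterol regulators and uptake genes 6 rose and 8 fell. Insig1, which holds the sterol sensor in the endoplasmic reticulum, fell (156 ± 3.14 to 68.9 ± 4.74 CPM, -1.18 ± 0.07), as did Srebf2, the master regulator (-0.28 ± 0.03). The genes that release cholesterol from lysosomes rose: Lipa (40.6 ± 1.06 to 59.2 ± 3.78 CPM, 0.54 ± 0.05), Npc1 (82.5 ± 1.86 to 117 ± 3.13 CPM, 0.50 ± 0.04) and Npc2 (0.29 ± 0.04). The promoter of Hmgcs1 is shown as the 1 of 16 cholesterol synthesis promoters with the sterol regulatory element TCACNCCAC in the 250 bases before the start, on either strand. The element stands in 1.05% of all windows, and 1.21% of the tested genes with a window hold it in at least 1 window. Capitals mark it in chr13:119690184-119690252, plus strand.
Hmgcs1: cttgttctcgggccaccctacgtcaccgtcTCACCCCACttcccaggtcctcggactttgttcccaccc

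Fatty acid synthesis genes fell in 16 of 22 cases and rose in 3 (median -0.28). Acly, which supplies acetyl-CoA in the cytosol, was at 499, 548 and 546 CPM in the control libraries and 328, 278 and 318 CPM in the IsoAlloLCA libraries (-0.79 ± 0.05). Fads2, the delta-6 desaturase, was at 112, 126 and 119.7 CPM in the control libraries and 61.1, 48.1 and 54.6 CPM in the IsoAlloLCA libraries (-1.13 ± 0.07). Both were lower in every treated library. Elovl7 (0.95 ± 0.12) and Dgat1 (0.64 ± 0.08, or 0.41 with exon share as a covariate) rose. Of 12 liver X receptor and sterol export genes 4 rose and 4 fell, near the shares over all tested genes (30.6% and 27.8%). The rises dropped to 1 with exon share as a covariate and were also fewer with replicate 1 alone. Abcg1, a sterol exporter, was at 27.6 ± 0.469 and 31.2 ± 1.96 CPM and did not pass (adjusted p = 0.0588 in edgeR). It was called higher under upper-quartile scaling, with the 6 libraries fitted alone and without IsoAlloLCA replicate 1. Abca1, another sterol exporter, had a log2 fold change of 0.87, or 0.60 with exon share as a covariate and 0.59 with replicate 1 alone. Glycolysis genes fell by small amounts in 17 of 23 cases and rose in 2 (median -0.24). Pfkp, a phosphofructokinase, went from 601 ± 34.3 to 391 ± 1.66 CPM (-0.62 ± 0.05), Aldoc from 45.2 ± 5.72 to 30.03 ± 1.13 CPM (-0.59 ± 0.11), and the lactate transporter gene Slc16a1 from 191 ± 10.1 to 137 ± 13.4 CPM (-0.48 ± 0.06). The glucose transporter gene Slc2a3 rose (0.33 ± 0.09), a call lost with replicate 1 alone (0.27). The 17 falls became 11 with exon share as a covariate and 11 with replicate 1 alone. Of 20 other hypoxia response genes 4 rose and 6 fell (3 in each of those fits), and of 20 fatty acid oxidation genes 4 rose and 4 fell. The latter counts were 9 and 2 with exon share as a covariate, so mostly rises, and 4 and 1 with replicate 1 alone.

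Genes that make and load amino acids fell. Of 20 cytosolic tRNA synthetase genes 19 fell and 1 rose (median -0.44). The rise, of Qars (0.11 ± 0.04), was lost with the 6 libraries fitted alone. Yars was at 141, 149 and 154 CPM in the control libraries and 96.2, 86.7 and 93.5 CPM in the IsoAlloLCA libraries (-0.69 ± 0.05). Tars was at 217, 231 and 245 CPM in the control libraries and 160.2, 138 and 154 CPM in the IsoAlloLCA libraries (-0.62 ± 0.05). No treated library reached the control range in these genes. Of 16 serine, one-carbon and cysteine synthesis genes 13 fell and none rose (median -0.50). Gpt2, a mitochondrial alanine transaminase, was at 33.2, 43.03 and 43.7 CPM in the control libraries and 21.9, 20.02 and 18.6 CPM in the IsoAlloLCA libraries (-0.98 ± 0.11). Shmt2 (438 ± 12.8 to 287 ± 8.42 CPM, -0.61 ± 0.04) and Aldh18a1, of proline synthesis (222 ± 10.1 to 134 ± 5.85 CPM, -0.73 ± 0.05), also fell. Of 15 amino acid transporter genes 10 fell (6 with replicate 1 alone) and 2 rose, Slc38a2 (0.20 ± 0.04, or 0.11 with exon share as a covariate) and the lysosomal Slc38a9 (0.70 ± 0.13), whose call that covariate ended (0.21). The largest fall was of Slc7a5, a leucine transporter (594 ± 39.7 to 332 ± 21.5 CPM). Among 18 regulators of the integrated stress response 5 rose (3 with replicate 1 alone) and 9 fell. Eif2ak3, which encodes the kinase PERK, was at 68.8, 62.6 and 57.6 CPM in the control libraries and 130.1, 143 and 136 CPM in the IsoAlloLCA libraries (1.11 ± 0.06). Atf4, the transcription factor at the centre of this response, was at 421, 474 and 496 CPM in the control libraries and 344, 336 and 333 CPM in the IsoAlloLCA libraries (-0.46 ± 0.05). The sensor gene thus stood higher and the effector gene lower in all treated libraries. The ATF4 target Chac1 fell (9.38 ± 1.18 to 4.87 ± 0.224 CPM, -0.94 ± 0.12).

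Most growth and DNA replication genes fell, all by less than 2-fold. Of 33 Myc and ribosome biogenesis genes 28 fell and 4 rose (median -0.49). Nolc1, a nucleolar chaperone, was at 336, 327 and 364 CPM in the control libraries and 208, 170.0 and 205 CPM in the IsoAlloLCA libraries (-0.82 ± 0.06). The rises of at least 2-fold were of the Myc antagonists Mxd4 at 4.15, 4.68 and 4.17 CPM in the control libraries and 13.4, 17.1 and 12.4 CPM in the IsoAlloLCA libraries (1.73 ± 0.11) and Mxd1 (11.8 ± 0.778 to 24.8 ± 2.87 CPM, 1.08 ± 0.09). Of 37 S phase genes 35 fell and none rose (median -0.35), and none of the falls reached 2-fold. Ung, which removes uracil from DNA, was at 44.6, 46.9 and 47.5 CPM in the control libraries and 27.7, 21.99 and 26.01 CPM in the IsoAlloLCA libraries (-0.88 ± 0.06). Mcm5, a subunit of the replicative helicase, was at 547, 538 and 559.9 CPM in the control libraries and 431, 388 and 427 CPM in the IsoAlloLCA libraries (-0.40 ± 0.04). Both lay outside the control range in every treated library. Of 33 mitosis genes 18 fell and 4 rose, with a smaller median of -0.10. Plk1 fell (-0.47 ± 0.03) and Mki67 was at 1567 ± 132 and 1577 ± 59.8 CPM and did not pass. Among 18 cyclin and CDK genes 3 rose (5 with exon share as a covariate) and 8 fell. Ccnd3, the D-type cyclin of dividing lymphocytes, went from 449.7 ± 9.61 to 245 ± 24.1 CPM (-0.88 ± 0.05), and the inhibitors Cdkn1a and Cdkn1b rose. The E2F motif TTTNNCGC stood on either strand in 8 of 31 S phase promoters and in 4.28% of all windows. Of the tested genes with a window, 8.20% held it in at least 1 window. The promoter of Mcm5 at chr8:75109326-75109397, plus strand, is shown with overlapping matches in capitals.
Mcm5: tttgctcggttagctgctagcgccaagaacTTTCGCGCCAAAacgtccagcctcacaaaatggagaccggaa

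Cytosolic ribosomal protein genes did not share the fall of ribosome biogenesis genes. Of 80, 23 rose and 2 fell (median 0.04). The number of rises depends on the fit, with 10 under RLE scaling, 35 under upper-quartile scaling, 47 with exon share as a covariate and 11 with replicate 1 alone. Of 78 mitochondrial ribosomal protein genes 46 fell and 4 rose (median -0.16), and the falls became 21 with that covariate, where 12 rose, and 20 with replicate 1 alone. The proteasome list had 29 of 31 genes lower (median -0.25), and 19 in each of those fits. Respiratory chain subunits moved little, with medians of -0.05 in complex I, -0.06 in complexes II to IV and -0.11 in ATP synthase. Their direction depends on the fit. Of 37 complex I genes 4 rose and 10 fell, but 14 rose and 3 fell with exon share as a covariate. In complexes II to IV 3 of 27 rose and 9 fell, against 8 and 5 with it. In ATP synthase 2 of 17 rose and 8 fell, against 3 and 3. The falls were also fewer with replicate 1 alone.

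Actin and tubulin genes fell in 19 of 27 cases and rose in 3 (median -0.26). Tubb6, a beta-tubulin, was at 81.1, 85.02 and 84.5 CPM in the control libraries and 34.9, 28.9 and 34.6 CPM in the IsoAlloLCA libraries (-1.35 ± 0.07). Pfn1, which feeds actin monomers to filaments, was at 1476, 1441 and 1533 CPM in the control libraries and 1074, 955 and 1028 CPM in the IsoAlloLCA libraries (-0.54 ± 0.04). Tuba4a was at 378, 360.4 and 389.9 CPM in the control libraries and 237, 192 and 225 CPM in the IsoAlloLCA libraries (-0.79 ± 0.05). Each lay below the control range in all treated libraries. Tubb2b (0.66 ± 0.10), Vim and Actn1 (0.19 ± 0.06) rose, the last with a call lost without control replicate 3. Of 15 nuclear lamina and envelope genes 8 rose and 6 fell. Beside the rise of Lmna, the B-type lamin genes Lmnb1 (513 ± 9.100 to 367 ± 16.4 CPM, -0.48 ± 0.03) and Lmnb2 (-0.23 ± 0.04) and the lamin B receptor gene Lbr (456 ± 4.55 to 342 ± 19.3 CPM, -0.42 ± 0.03) fell. Syne1 (0.45 ± 0.07) and Syne2 (0.58 ± 0.10, or 0.33 with exon share as a covariate), giant linkers of nucleus and cytoskeleton, rose. The CArG box, the element of serum response factor, was found in 1 of 23 actin and tubulin promoters, that of Actg1. It stood in 1.47% of all windows, and 1.28% of the tested genes with a window held it in at least 1 window. Capitals mark the box in chr11:120348546-120348615, minus strand.
Actg1: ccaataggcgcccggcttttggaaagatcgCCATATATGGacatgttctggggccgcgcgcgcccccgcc

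Type I interferon-stimulated genes fell. Of 31 tested, 25 fell, 6 at least 2-fold, and none rose (median -0.55). Isg20, an antiviral exonuclease, was at 18.5, 23.4 and 22.1 CPM in the control libraries and 10.4, 9.11 and 9.23 CPM in the IsoAlloLCA libraries (-1.15 ± 0.09). Usp18, which switches off the interferon receptor, was at 6.66, 6.97 and 5.11 CPM in the control libraries and 2.69, 2.72 and 2.57 CPM in the IsoAlloLCA libraries (-1.22 ± 0.18). Rtp4 was at 3.75, 4.25 and 3.26 CPM in the control libraries and 1.21, 1.36 and 1.26 CPM in the IsoAlloLCA libraries (-1.54 ± 0.22). In these genes the treated libraries lay below all controls. Isg15, a ubiquitin-like protein, was at 5.79, 7.71 and 4.696 CPM in the control libraries and 4.17, 3.33 and 3.24 CPM in the IsoAlloLCA libraries (-0.75 ± 0.16), and its call was lost with replicate 1 alone (-0.54, edgeR adjusted p = 0.0513). Ifit1, an RNA sensor, was at 8.49, 12.4 and 8.98 CPM in the control libraries and 7.17, 7.29 and 5.43 CPM in the IsoAlloLCA libraries (-0.57 ± 0.16), and its call was lost with exon share as a covariate (-0.44), with replicate 1 alone (-0.48) and without control replicate 2. Of 17 GTPases and factors induced by interferon gamma 5 rose (3 with replicate 1 alone) and 11 fell. Irf8 fell (123 ± 3.21 to 47.9 ± 7.09 CPM, -1.36 ± 0.07), as did Irgm1 (107 ± 5.898 to 54.4 ± 4.58 CPM, -0.97 ± 0.07), and Gbp5 rose (124 ± 7.16 to 199 ± 3.28 CPM, 0.68 ± 0.05). Of 19 antigen presentation genes 7 rose and 6 fell. The class I genes B2m (0.31 ± 0.05), H2-K1 (0.25 ± 0.03) and H2-D1 (0.17 ± 0.04) rose while the immunoproteasome genes Psmb8 (-0.48 ± 0.04), Psmb9 (-0.37 ± 0.05, or -0.23 with exon share as a covariate) and Psmb10 (-0.46 ± 0.04) fell. The core of the interferon-stimulated response element is 2 copies of GAAA with any 2 bases between. It stood on either strand in 9 of 21 promoters of the type I list and in 2.98% of all windows. Of the tested genes with a window, 3.31% held it in at least 1 window. Several matches were held by Isg15 and Ifit1, by Oas1a, which fell (-0.78), and by Bst2 (0.10) and Ifit3 (-0.31), which did not pass the test. Promoters of Isg15 (chr4:156200845-156200926, minus strand) and Ifit1 (chr19:34640755-34640843, plus strand) are shown as examples. Capitals mark the matches, which overlap in Isg15 and lie on the opposite strand in Ifit1.
Isg15: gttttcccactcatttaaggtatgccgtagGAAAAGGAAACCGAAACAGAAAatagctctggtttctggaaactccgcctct
Ifit1: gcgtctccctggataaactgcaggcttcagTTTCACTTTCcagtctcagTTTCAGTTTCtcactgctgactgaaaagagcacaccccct

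Lysosome and autophagy genes rose. Of 29 lysosome genes 21 rose and 1 fell (median 0.29), and of 23 autophagy genes 16 rose and 2 fell (median 0.34). Tpp1, a lysosomal peptidase, was at 53.6, 51.1 and 47.95 CPM in the control libraries and 78.1, 80.4 and 80.1 CPM in the IsoAlloLCA libraries (0.65 ± 0.04). Sqstm1, the cargo receptor p62, was at 115, 121 and 115 CPM in the control libraries and 196, 235 and 186 CPM in the IsoAlloLCA libraries (0.82 ± 0.06). Ulk1, the kinase that starts autophagy, was at 39.7, 40.4 and 35.5 CPM in the control libraries and 61.5, 77.1 and 66.3 CPM in the IsoAlloLCA libraries (0.83 ± 0.08). All treated libraries were above the controls in these genes. Tfe3, a master regulator of lysosomes, rose (0.61 ± 0.05), and its relative Tfeb did not pass (0.04 ± 0.06). The proton pump gene Atp6v1a fell (-0.28 ± 0.05), a call lost with replicate 1 alone (-0.13). Of 19 heat shock genes the inducible Hspa1a and Hspa1b rose and 12 fell, among them Hsp90aa1 (1420.0 ± 53.2 to 1001 ± 113 CPM, -0.51 ± 0.06) and Hsph1 (-0.50 ± 0.04). Dnajb1, another heat-inducible gene, was at 78.01 ± 1.52 and 77.1 ± 5.34 CPM and did not pass. Among 23 endoplasmic reticulum folding genes 10 rose and 7 fell (3 with exon share as a covariate and 3 with replicate 1 alone). The sensor gene Atf6 rose (74.3 ± 1.27 to 136 ± 7.43 CPM, 0.87 ± 0.04), and Xbp1, a transcription factor of this response, fell (264 ± 14.1 to 165 ± 15.9 CPM, -0.68 ± 0.06). Of 25 NRF2 and antioxidant genes 3 rose and 13 fell, with 6 rises and 10 falls with exon share as a covariate and 8 falls with replicate 1 alone.

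**Figure D4:**
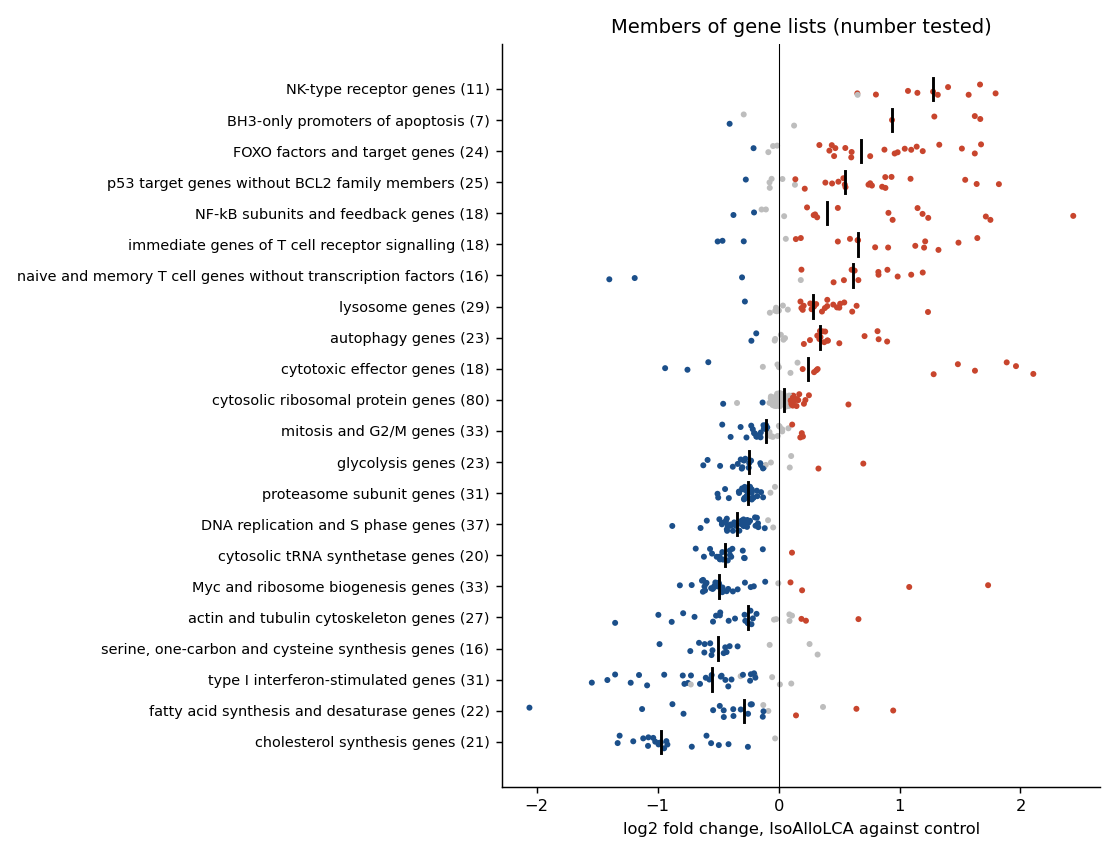
Log2 fold change of IsoAlloLCA against control (horizontal axis) for the tested members of 22 gene lists. Each point is a gene, coloured where it changed and grey where it did not pass the test, and black bars are medians. NK-type receptors have the highest median of these lists (1.28) and cholesterol synthesis genes the lowest (-0.97).

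Of 17 bile acid receptor genes and partners, 5 could be tested. Nr1h4, the gene of the bile acid receptor FXR, was at 0 counts in the 6 libraries of control and IsoAlloLCA, and Gpbar1, that of TGR5, reached at most 3 counts in one of them. Vdr, the vitamin D receptor gene, which LCA is known to engage, was at 2.23, 3.16 and 2.596 CPM in the control libraries and 3.87, 3.53 and 3.09 CPM in the IsoAlloLCA libraries (0.40 ± 0.16), a call lost with the 6 libraries fitted alone and with DESeq2. S1pr2 (9.37 ± 0.301 to 13.6 ± 0.187 CPM, 0.54 ± 0.08) and Rxra (21.3 ± 1.64 to 29.2 ± 3.66 CPM, 0.46 ± 0.07) rose. Among 11 transporter genes 5 rose and 1 fell. The drug efflux pump genes Abcb1a and Abcb1b rose, as did Abcc1 (0.41 ± 0.04) and Abcc5 (0.61 ± 0.08, or 0.34 with exon share as a covariate), while Abcc4 fell (-0.34 ± 0.06, or -0.20). The metallothionein genes Mt2 (66.4 ± 5.01 to 137 ± 11.8 CPM, 1.05 ± 0.07) and Mt1 (92.7 ± 3.13 to 164 ± 8.997 CPM, 0.82 ± 0.06), which may share reads, rose, and the zinc importer gene Slc39a10 fell (54.97 ± 2.38 to 22.4 ± 1.204 CPM, -1.296 ± 0.08). Of 13 circadian clock genes 9 rose and none fell (median 0.48), among them Nr1d2 (0.77 ± 0.09) and Arntl (0.69 ± 0.09). The nuclear noncoding RNA genes Neat1 and Malat1 moved with the exon share. Neat1 was at 148, 112 and 80.5 CPM in the control libraries and 123, 279.8 and 208 CPM in the IsoAlloLCA libraries (0.85 ± 0.24), and with exon share as a covariate the value was -0.14. Malat1 was at 472, 283 and 152 CPM in the control libraries and 261, 767 and 583 CPM in the IsoAlloLCA libraries (0.83 ± 0.35), and -0.52 with that covariate and -0.22 with replicate 1 alone.

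IsoAlloLCA was then compared directly with its stereoisomers at the same dose and time, LCA and IsoLCA, in 2 comparisons over all tested genes. Against LCA, 8005 genes differed (61.4%), 4212 higher (32.3%) and 3793 lower (29.1%). Against IsoLCA, from which IsoAlloLCA differs in the ring junction alone, 7802 differed (59.8%), 4136 higher (31.7%) and 3666 lower (28.1%). At 2-fold or more the counts were 636 higher (4.88%) and 175 lower (1.34%) against LCA, and 618 (4.74%) and 83 (0.636%) against IsoLCA. In 2712 genes (20.8%) the 3 IsoAlloLCA libraries lay above all control, LCA and IsoLCA libraries, and in 2487 (19.1%) below them. Exon share was 80.7% ± 1.52 (SD, n = 3) with LCA and 83.3% ± 1.38 (SD, n = 3) with IsoLCA, so it was lowest with IsoAlloLCA. List counts in these 2 comparisons come from the main fit, and their dependence on exon share was not tested.

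Tnfsf4 stood at 2.49 ± 0.294 CPM with LCA and 3.81 ± 0.682 CPM with IsoLCA, and IsoAlloLCA differed by 3.12 ± 0.11 and 2.53 ± 0.10. Selp, the P-selectin gene, was at 4.55 ± 0.379 CPM in control, 1.28 ± 0.166 CPM with LCA, 1.33 ± 0.0663 CPM with IsoLCA and 12.3 ± 1.72 CPM with IsoAlloLCA. It was thus lower than control with LCA and IsoLCA in these means and higher with IsoAlloLCA, a difference of 3.27 ± 0.14 and 3.21 ± 0.14 between the acids. Lmna was at 18.7 ± 0.269 CPM with LCA and 23.7 ± 0.542 CPM with IsoLCA, and IsoAlloLCA exceeded both (1.84 ± 0.05 and 1.504 ± 0.05). Bcl2l11 (1.56 ± 0.08 and 1.57 ± 0.09) and Gzmc (1.07 ± 0.06 and 1.88 ± 0.06) were higher than with either acid. Actb was lower than with LCA (-0.86 ± 0.05) and IsoLCA (-0.96 ± 0.05). Other large rises were of Ak1, Klhl24, Pygl and Gucy2e against LCA and of Cd83, Rgs2, Tnfaip3 and Tagap against IsoLCA. Tnfrsf8 and Enah were among the 6 largest falls in both comparisons.

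Some genes separated the acids in other orders. Rtp4 was at 3.75 ± 0.493 CPM in control, 11.1 ± 0.781 CPM with LCA and 1.28 ± 0.0761 CPM with IsoAlloLCA, a difference of -3.12 ± 0.19 between the acids. Over the 31 type I interferon genes, 29 were lower and none higher with IsoAlloLCA than with LCA (median -1.09), and 17 were lower and 1 higher than with IsoLCA (median -0.30). Glycolysis genes went the other way, 20 of 23 being higher with IsoAlloLCA than with LCA and 2 lower, against 5 higher and 6 lower beside IsoLCA. Of the 20 other hypoxia response genes 17 were higher than with LCA and 1 was lower. Abcg1 was at 7.04 ± 1.17 CPM with LCA and 14.9 ± 0.2103 CPM with IsoLCA, and IsoAlloLCA exceeded them by 2.14 ± 0.09 and 1.06 ± 0.08. Mt2 was highest with IsoLCA (236 ± 10.2 CPM, -0.78 ± 0.07). Scd1 was at 71.2 ± 9.03 CPM with LCA and 140.1 ± 12.4 CPM with IsoLCA, and the differences were -0.34 ± 0.11 and -1.31 ± 0.11. The call against LCA was lost without IsoAlloLCA replicate 2 and without LCA replicate 1. Tubb6 did not differ past the threshold between IsoAlloLCA and IsoLCA (0.03 ± 0.07, 95% interval -0.13 to 0.18), but with exon share as a covariate it was called higher with IsoAlloLCA (0.23). Cholesterol synthesis genes were lower with IsoAlloLCA in 18 of 21 cases against LCA (median -0.30) and in 19 against IsoLCA (median -0.75).

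**Figure D5:**
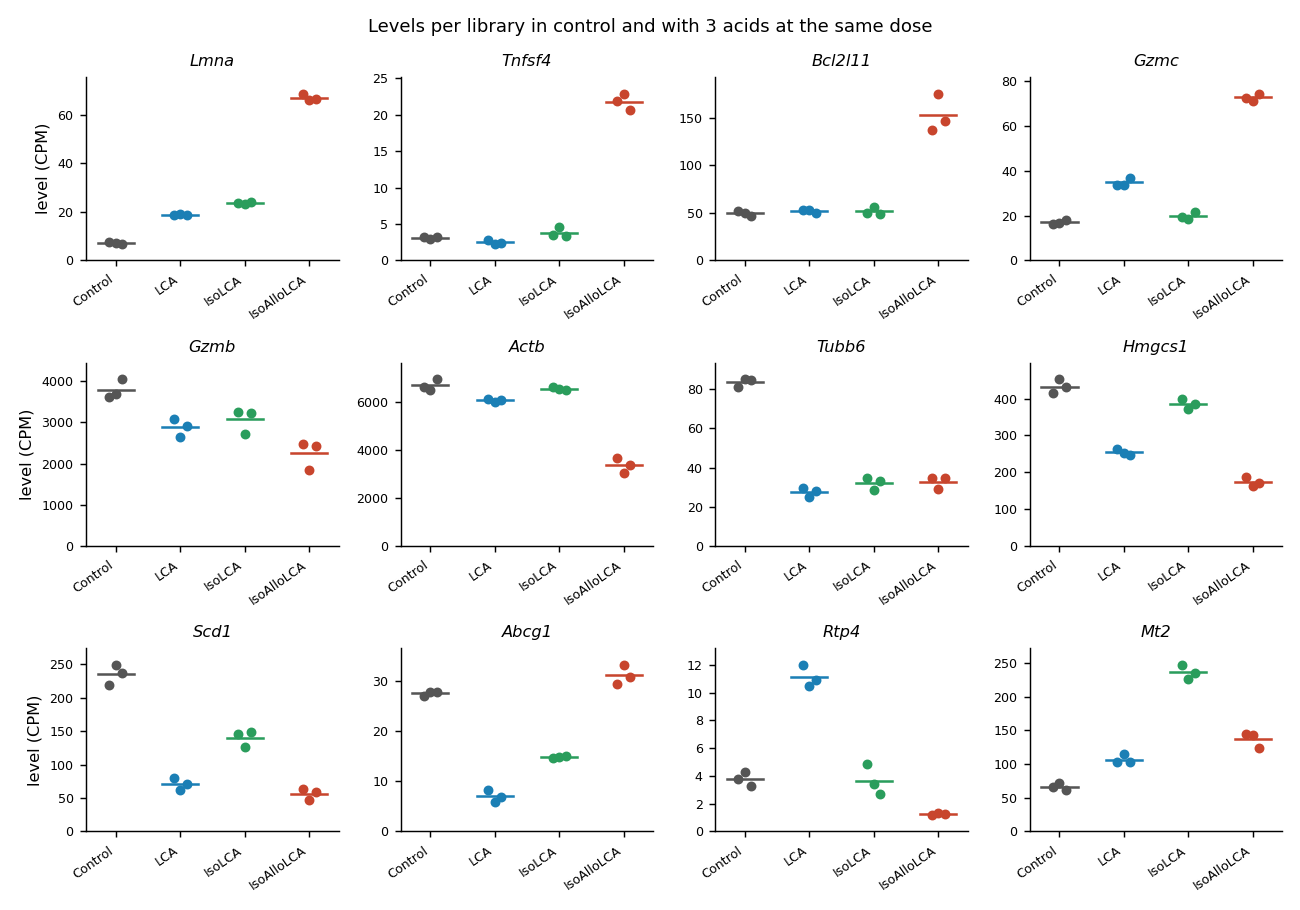
Level in CPM per library of 12 genes in control, LCA, IsoLCA and IsoAlloLCA. Points are libraries and bars group means. IsoAlloLCA is the highest group for Lmna, Tnfsf4, Bcl2l11 and Gzmc and the lowest by its mean for Gzmb, Actb, Hmgcs1, Scd1 and Rtp4, while Mt2 is highest with IsoLCA, Abcg1 lowest with LCA, and Tubb6 is at a like level with IsoLCA and IsoAlloLCA.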

How the data were processed

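RNA-seq libraries of mouse CD8+ T cells were made with a method for ultra-low input, per the labels' protocols. The authors deposited expected counts per gene (29.43% of values end in 0.5), made with HOMER over exons on mm10 without normalization, per the file headers. STAR, DESeq2 and GRCm38 are also named, without versions, per the submitters' processing notes. No strand option is named, so antisense and overlapping genes, paralogs and the 393 genes with more than 1 copy are uncertain. Values were rounded to whole counts, 0.5 upward, although the design had assumed whole counts.

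All 24 libraries were fitted in edgeR 4.0.16 (R 4.3.3) with 1 coefficient per group, TMM and filterByExpr, which kept 13044 of 24537 genes. The quasi-likelihood test was adjusted by Benjamini-Hochberg over all tested genes of a comparison. The SE is the absolute log2 fold change divided by the square root of F, from a spread shared by 24 libraries (16 residual degrees of freedom). Replicates differed beyond sampling noise, with chi-square per degree of freedom of 4.99 to 18.7, so none was counted as a duplicate.

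The comparison, gene lists and named genes were chosen with earlier results of these data known. The rule named the 12 largest rises and falls of at least 10 CPM without overlap, genes crossing 0.5 and 2 CPM, the 8 largest gains and losses in CPM, the 4 members of each of 69 lists with the smallest adjusted p, a fixed set of T cell and lipid genes, and 6 rises and falls for each pair of acids. Further list members given as examples were chosen after their values were seen. A few of the genes so selected are left out of the text. Promoter windows are the 250 bases before RefSeq starts (GRCm38.p6).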

Additional observations from a re-analysis of the deposited data

How the results depend on the processing

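The count of genes changed against control was 7618. Other scaling gave 7583 (RLE) and 7677 (upper quartile), no filter on low counts 7490, and rounding 0.5 down 7607. With the 6 libraries fitted alone it was 6464, and with DESeq2 1.42.0, 7232. Leaving out 1 library gave 6651 to 7631. With the replicate number as a block it was 7722, and 8101 against LCA and 7876 against IsoLCA. The deviations of IsoAlloLCA libraries and of same-numbered libraries correlated at -0.33, 0.07 and -0.004 in control, 0.32, 0.23 and 0.057 in LCA and 0.40, 0.33 and 0.07 in IsoLCA. Not every pair passed 0.1 in any of the 3 comparisons, so the numbers were not taken to pair the libraries. As a hint from the data, each IsoAlloLCA library correlated best with its own number in LCA and IsoLCA, and not in control. The fit with exon share as a covariate gave 6683 against control. Against LCA it gave 8224 (8005 in the main fit) and against IsoLCA 6221 (7802 in the main fit). Rises of at least 2-fold against IsoLCA went from 618 to 446 with that covariate. The fit with IsoAlloLCA replicate 1 alone has fewer samples and was chosen after seeing the data. A minimum of 1 CPM in 3 libraries tested fewer genes and lowered the 2-fold falls to 112 against control and 51 against IsoLCA. No other count over all genes moved by more than 1.5 times. Of 391 named genes 381 were called. With exon share as a covariate 366 kept the call and direction, and Neat1 (-0.14) and Malat1 (-0.52) turned. With replicate 1 alone, where the spread comes from other groups, 360 kept them, and Malat1 (-0.22) turned. No called gene turned when 1 library was left out, and 11 lost the call at least once.

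Precision is limited by 3 libraries per group, by depth for genes under 1 CPM, and by an exon share that moves with IsoAlloLCA. Cell numbers and RNA per cell, and paralogs sharing reads, cannot be separated. Intervals from counts cover counting error only.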
